A study of Mus musculus with 6 samples.

Results

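The expression of 8 chemokine genes and 2 atypical chemokine receptor genes was followed in CD34hi and CD34lo fibroblasts of the pubertal mouse mammary gland, 10 genes of the 27179 in the count table. They were chosen by symbol: the ligands *Cxcl12*, *Cxcl14*, *Cx3cl1*, *Ccl11*, *Ccl2*, *Ccl7*, *Cxcl1* and *Cxcl16*, and the receptors *Ackr3* and *Ackr4*. Both populations were sorted as lineage-negative (CD31-, CD45-, TER-119-) CD24- Pdgfrα+ stromal cells from 6-week-old FVB/N mice, for which the labels name no treatment or allele, and they differed only in the CD34 gate. There were 3 pools of 2 mice, and each pool gave 1 CD34hi and 1 CD34lo library. Same-numbered libraries were taken to come from the same animals, so that 1 pool is 1 replicate. Poly(A) RNA was sequenced on a NextSeq 500, and each library held between 28764779 and 52402410 counts.

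Chemokines are small secreted proteins that steer the migration of leukocytes and other cells through receptors coupled to G proteins, and *Cx3cl1* and *Cxcl16* encode membrane-anchored ligands that can be shed. Atypical receptors bind chemokines without that coupling, and many of them take up and degrade the ligand, so that they shape how much ligand other cells meet. Cxcl12 is bound by the signalling receptor Cxcr4 and by the atypical receptor Ackr3. In the mammary gland, fibroblasts are a known source of Cxcl12, and recruited macrophages and eosinophils take part in the growth of the ducts in puberty.

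Of the 10 genes, 2 were higher in CD34hi fibroblasts, both of them the receptors, and 4 were higher in CD34lo fibroblasts, all of them ligands. *Ackr3* and *Ackr4* were 10.0-fold and 15.0-fold higher in CD34hi cells, while *Cx3cl1*, *Cxcl14*, *Cxcl12* and *Ccl11* were 13.8-fold, 8.39-fold, 2.17-fold and 1.81-fold higher in CD34lo cells. Among all 15219 genes tested, 16.9% were called higher in CD34hi and 18.7% higher in CD34lo cells at an adjusted p under 0.05 (quasi-likelihood test in edgeR, adjusted over all tested genes after Benjamini and Hochberg). *Ccl2* and *Ccl7* missed the threshold in this fit and passed it when the mouse pool entered as a replicate block, which raised the members higher in CD34hi from 2 to 4 and left those higher in CD34lo at 4. In that fit, 19.6% of all genes were higher in CD34hi and 20.9% higher in CD34lo cells. *Cxcl1* and *Cxcl16* passed in neither fit. All 10 genes had enough counts for the test, and the median of their log2 fold changes was 0.10, beside -0.0064 for all genes tested.

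The sort could be read in the libraries, with *Cd34* at 2490 to 2639 CPM (counts scaled to the TMM-adjusted size of the library) in CD34hi and 476 to 793 CPM in CD34lo cells. *Pdgfra*, the other gate, was at 637 to 922 CPM in CD34hi and 1036 to 1416 CPM in CD34lo cells. The collagen and proteoglycan genes of fibroblasts were abundant in both. Of 6 fibroblast markers, 4 were called higher in CD34lo and 0 in CD34hi, beside 18.7% and 16.9% of all genes tested. Among the 4 were *Lum* (2.43-fold) and *Col1a1* (1.83-fold). The leukocyte marker *Ptprc* was at most 0.360 CPM in any library. CPM values compare libraries within a gene, while levels of different genes are compared below only per length, as RPKM. A higher level in a bulk library can mean more cells that express a gene or more RNA per cell, and these cannot be told apart.

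**Figure D1:**
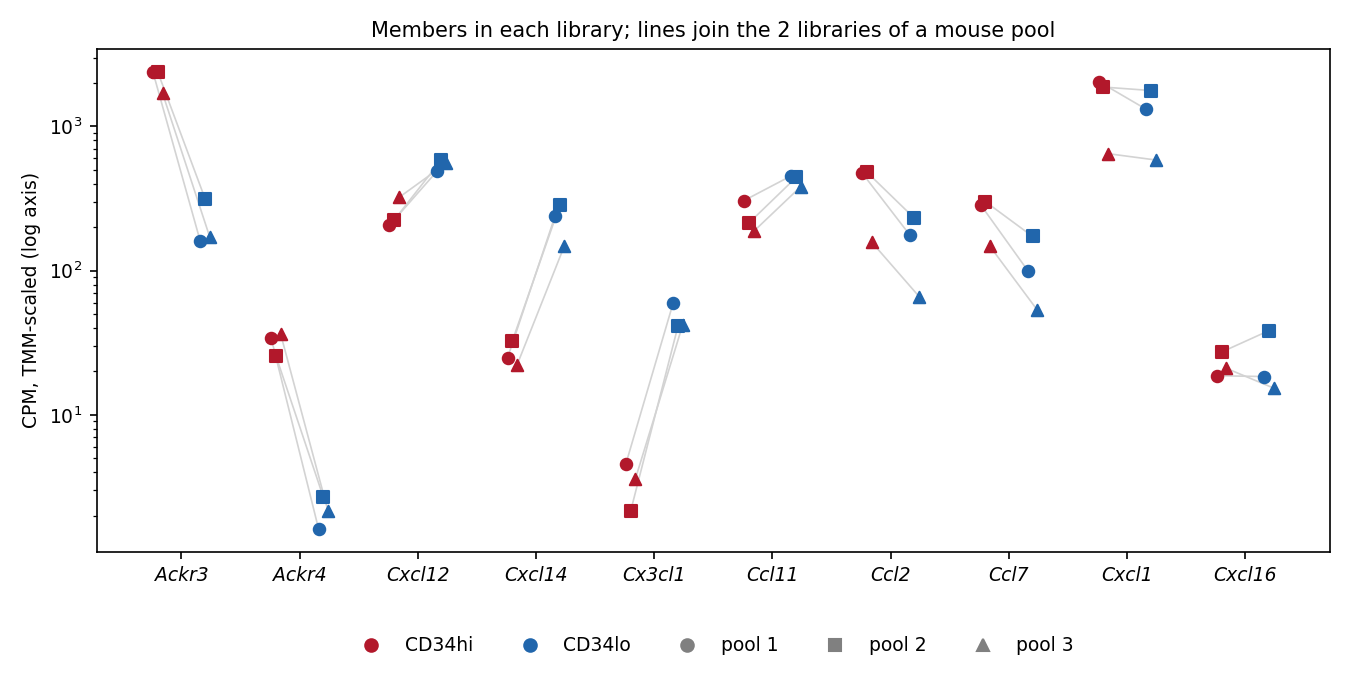
TMM-scaled CPM of the 10 genes in each of the 6 libraries on a log axis, with CD34hi in red, CD34lo in blue, 1 symbol per mouse pool, and a line joining the 2 libraries of a pool. *Ackr3* and *Ackr4* fell from CD34hi to CD34lo in every pool and *Cxcl12*, *Cxcl14*, *Cx3cl1* and *Ccl11* rose in every pool, whereas the pool 3 points (triangles) of *Ccl2*, *Ccl7* and *Cxcl1* lay lowest in both populations.

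*Ackr3* (gene 12778, GRCm38 chromosome 1, 90204003 to 90216288), a scavenger of Cxcl12 and Cxcl11 and the second most abundant of the 10 transcripts per length in CD34hi cells, was at 2370, 2382 and 1702 CPM in CD34hi pools 1 to 3 and at 159, 315 and 171 CPM in the matching CD34lo libraries. The lowest CD34hi library thus lay far above the highest CD34lo library, and the ratio within a pool was 14.9, 7.55 and 9.96. The log2 fold change was 3.32 (standard error 0.30, edgeR adjusted p = 5.69e-05).

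*Ackr4* (gene 252837, chromosome 9, 104098138 to 104126643) encodes a scavenger of the homing chemokines Ccl19, Ccl21 and Ccl25. Its values were 33.9, 25.6 and 36.2 CPM in CD34hi and 1.62, 2.70 and 2.15 CPM in CD34lo libraries. The groups did not overlap, and the ratio was 20.9, 9.48 and 16.8 in the 3 pools. The log2 fold change of 3.91 (standard error 0.23, edgeR adjusted p = 6.92e-06) was the largest positive one of the 10 genes. *Ackr4* lies on the opposite strand of *Acad11*, with which it shares 7.21% of its 50-base stretches, and the strand setting of the counting is not given in the sources used here. *Acad11* itself had 10.9 CPM in CD34hi and 6.26 CPM in CD34lo cells on average, 2110 counts in all against 4316 for *Ackr4*.

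The atypical receptors that were not members were examined beside these, and all 3 were called. *Ackr2*, which degrades inflammatory CC chemokines such as Ccl2, Ccl7 and Ccl11, was at 86.6, 88.3 and 110 CPM in CD34hi and 4.83, 4.82 and 6.46 CPM in CD34lo libraries. Its log2 fold change was 4.15 (standard error 0.18, edgeR adjusted p = 2e-06). *Ackr1*, a promiscuous chemokine binder known from red cells and venules, was at 94.1, 97.9 and 74.4 CPM in CD34hi and 13.1, 14.0 and 15.7 CPM in CD34lo libraries, a log2 fold change of 2.64 (standard error 0.15, edgeR adjusted p = 6.15e-06). *Ackr1* shares 20.4% of its 50-base stretches with transcripts of *Cadm3*. *Ccrl2*, which binds the attractant chemerin, went the other way, with 6.57 to 6.95 CPM in CD34hi and 11.2 to 12.5 CPM in CD34lo cells, a log2 fold change of -0.82 (standard error 0.13, edgeR adjusted p = 0.00161). Over the 5 atypical receptors, 4 were thus higher in CD34hi and 1 in CD34lo cells, beside 16.9% and 18.7% of all genes. The median of the log2 fold changes of the 5 was 3.32. Of 7 endothelial markers read beside *Ackr1*, 2 were called higher in CD34hi, *Tek* (473 to 647 CPM in CD34hi, 21.9 to 41.9 CPM in CD34lo) and *Kdr* (33.9 to 70.9 and 4.57 to 8.16 CPM). Higher in CD34lo were 3, among them *Pecam1* (3.22 to 10.3 and 12.1 to 18.4 CPM) and *Cdh5* (1.97 to 4.33 and 6.69 to 8.71 CPM). Their part in the level of *Ackr1* was not tested.

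*Cxcl12* (gene 20315, chromosome 6, 117168535 to 117181368), the ligand of Cxcr4 and Ackr3, was at 207, 225 and 322 CPM in CD34hi and 487, 588 and 555 CPM in CD34lo libraries. The groups did not overlap, although the difference was narrowest in pool 3, where the log2 ratio was -0.79 beside -1.24 and -1.39 in pools 1 and 2. The log2 fold change over all libraries was -1.12 (standard error 0.19, edgeR adjusted p = 0.00175). *Cxcl12* therefore ran opposite to *Ackr3*. Per length, *Ackr3* had 31.8, 29.4 and 14.7 times the RPKM of *Cxcl12* in the CD34hi libraries and 0.908, 1.49 and 0.854 times in the CD34lo libraries. These ratios rest on exon lengths of 7161 bases for *Cxcl12* and 2579 bases for *Ackr3*, and isoforms were not told apart.

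The signalling receptor of the pair, *Cxcr4*, ran with the ligand and not with *Ackr3*. It was at 0.805, 0.717 and 0.706 CPM in CD34hi and 21.5, 18.0 and 28.0 CPM in CD34lo libraries, with a log2 fold change of -4.91 (standard error 0.22, edgeR adjusted p = 2.36e-06). In RPKM, *Ackr3* exceeded *Cxcr4* 1696-fold to 2335-fold in CD34hi and 4.29-fold to 12.3-fold in CD34lo libraries. Since *Cxcr4* is also used by endothelial and immune cells, markers of these were read beside it. *Ptprc* was at 0.0221 to 0.359 CPM in CD34hi and 0.193 to 0.360 CPM in CD34lo libraries, and the 10 myeloid markers summed to 2.71 to 4.03 CPM and 6.37 to 8.19 CPM. The 7 endothelial markers summed to 535 to 694 CPM in CD34hi and 51.8 to 85.4 CPM in CD34lo cells. In CD34hi *Tek* made up the most of this sum. Besides *Tek*, only *Kdr* was called higher in CD34hi. *Pecam1*, *Cdh5* and *Emcn* were called higher in CD34lo (log2 fold changes -1.14, -1.29 and -1.33). *Tie1* (-1.05) and *Egfl7* (-1.10) also had negative values and were not called. The 8 lymphoid markers summed to 14.6 to 17.1 CPM in CD34hi and 3.92 to 7.55 CPM in CD34lo cells. Of these, 1 was called higher in CD34hi, *Cd3e* (13.9 to 16.0 against 1.67 to 5.43 CPM), and 1 higher in CD34lo, *Cd79a* (0.617 to 1.02 against 1.49 to 2.09 CPM). Of 6 mural cell markers, 4 were higher in CD34lo, such as *Myh11* (1.57 to 2.90 against 32.4 to 36.6 CPM), and *Kcnj8* was higher in CD34hi (27.5 to 39.6 against 9.39 to 16.6 CPM). *Notch3* (2.98 to 6.06 against 29.6 to 56.1 CPM), *Cspg4* (2.87 to 3.62 against 16.2 to 21.5 CPM) and *Rgs5* were also higher in CD34lo. The mural list summed to 138 to 195 CPM in CD34hi and 183 to 270 CPM in CD34lo cells. Of this sum *Abcc9*, which was not called, made up the most in CD34hi (100 to 146 against 63.5 to 151 CPM). The part of such cells in the levels of *Cxcr4* and of the ligands higher in CD34lo was not tested.

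*Cx3cl1* (gene 20312, chromosome 8, 94772180 to 94782427), which encodes the membrane-bound ligand fractalkine, had the largest negative change of the 10 genes. It was at 4.58, 2.15 and 3.59 CPM in CD34hi and 59.8, 41.1 and 42.0 CPM in CD34lo libraries. The groups were far apart, and the log2 fold change was -3.78 (standard error 0.28, edgeR adjusted p = 2.24e-05). Its receptor gene *Cx3cr1* lay between 0.129 and 0.539 CPM in all 6 libraries, with overlapping groups and no call (log2 fold change -0.33, standard error 0.61, edgeR adjusted p = 0.718).

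*Cxcl14* (gene 57266, chromosome 13, 56288643 to 56296551) encodes a chemokine made without inflammation in many epithelia and stromal tissues. It was at 25.0, 32.7 and 22.3 CPM in CD34hi and 238, 283 and 149 CPM in CD34lo libraries. Every CD34lo library exceeded every CD34hi library, with a log2 fold change of -3.07 (standard error 0.26, edgeR adjusted p = 3.95e-05).

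*Ccl11* (gene 20292, chromosome 11, 82057832 to 82062955), which encodes the eosinophil attractant eotaxin, differed less. Its values were 306, 214 and 187 CPM in CD34hi and 456, 443 and 383 CPM in CD34lo libraries, again without overlap. The log2 fold change was -0.86 (standard error 0.19, edgeR adjusted p = 0.0079). Without pool 2, it was -0.76 with an edgeR adjusted p = 0.0784, and the adjusted p ranged from 0.000117 to 0.0784 over its alternatives. No overlap between groups was seen for 2 of the 10 genes higher in CD34hi and 4 higher in CD34lo, beside 24.8% and 25.3% of all tested genes.

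**Figure D2:**
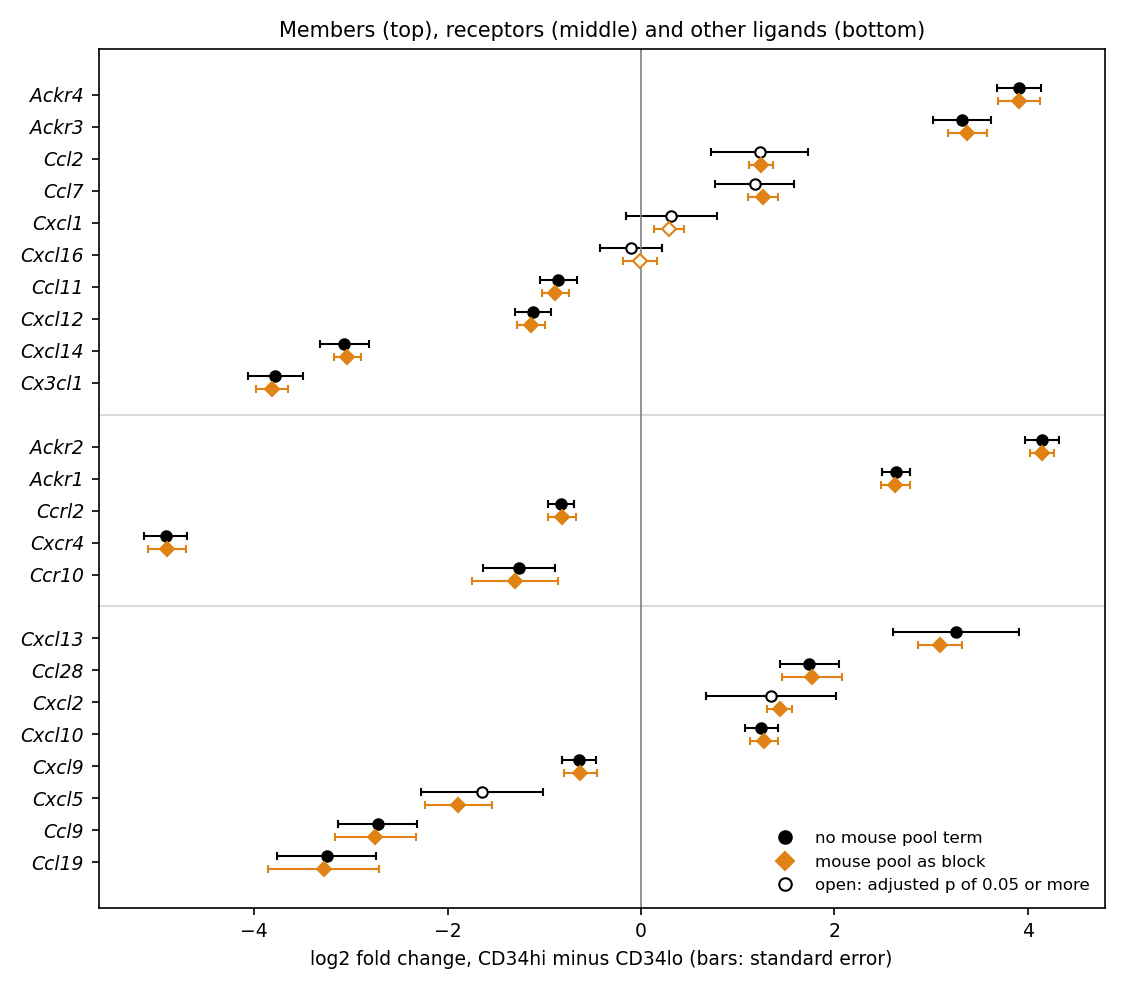
Log2 fold change (CD34hi minus CD34lo) with its standard error for the 10 genes (top), other chemokine receptors (middle) and other ligands (bottom), from edgeR without a mouse pool term (black circles) and with the mouse pool as a block (orange diamonds). Open symbols have an adjusted p of 0.05 or more, as for *Ccl2* (1.23) and *Ccl7* (1.17) without the block. The points of *Ackr1*, *Ackr2*, *Ackr3* and *Ackr4* lie right of 2 and that of *Cxcr4* lies at -4.91.

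*Ccl2* (gene 20296, chromosome 11, 82035577 to 82037452) and *Ccl7* (gene 20306, chromosome 11, 82045712 to 82047525) encode monocyte attractants that act through Ccr2. *Ccl2* was at 473, 481 and 157 CPM in CD34hi and 177, 231 and 66.2 CPM in CD34lo libraries. The groups overlapped, because both libraries of pool 3 were low, yet within each pool the CD34hi library was higher, by 2.67-fold, 2.08-fold and 2.38-fold. Without the pool in the fit, the log2 fold change was 1.23 (standard error 0.50, edgeR adjusted p = 0.0897). With the pool as a replicate block it was 1.24 (standard error 0.13, edgeR adjusted p = 4.5e-05), and the adjusted p ranged from 1.16e-05 to 0.25 over its alternatives.

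*Ccl7* showed the same order, with 287, 301 and 147 CPM in CD34hi and 99.9, 173 and 53.3 CPM in CD34lo libraries. CD34hi pool 3 lay below CD34lo pool 2, while the ratio within a pool was 2.87, 1.75 and 2.76. The log2 fold change was 1.17 without the block (standard error 0.41, edgeR adjusted p = 0.0535) and 1.26 with the replicate block (standard error 0.16, edgeR adjusted p = 0.000173, range over its alternatives 5.37e-05 to 0.215).

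*Cxcl1* (gene 14825, chromosome 5, 90891245 to 90893121), a neutrophil attractant that acts through Cxcr2, was at 2047, 1875 and 647 CPM in CD34hi and 1317, 1775 and 586 CPM in CD34lo libraries. Here the spread between pools was larger than that between populations, since both pool 3 libraries lay below all others. The ratio within a pool was 1.55, 1.06 and 1.11, and the log2 fold change was 0.31 (standard error 0.47, edgeR adjusted p = 0.648) without and 0.29 (standard error 0.15, edgeR adjusted p = 0.172) with the replicate block. *Cxcl16* (gene 66102, chromosome 11, 70454234 to 70459984), the ligand of Cxcr6, was at 18.7, 27.3 and 21.0 CPM in CD34hi and 18.4, 38.4 and 15.3 CPM in CD34lo libraries. Its groups overlapped, the pools disagreed in direction, and the log2 fold change was -0.10 (standard error 0.32, edgeR adjusted p = 0.829). *Cxcl16* shares 16.9% of its 50-base stretches with *Zmynd15* on the opposite strand, which had 997 counts against 5323.

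The low values in pool 3 were followed by a test of the pool terms in the fit with pool and population, chosen after these values were seen. Of all tested genes, 152 differed among the 3 pools, or 0.999%. Among them were 3 of the 10 genes. Against pool 1, pool 3 differed by a log2 value of -1.51 for *Ccl2* (edgeR adjusted p = 0.00489), -1.42 for *Cxcl1* (edgeR adjusted p = 0.0162) and -0.94 for *Ccl7* (edgeR adjusted p = 0.0296). In pool 3, *Ccl2* stood at 0.330 of the mean of pools 1 and 2 in CD34hi and at 0.324 of it in CD34lo cells, and *Cxcl1* at 0.330 and 0.379. The other 7 genes had edgeR adjusted p-values between 0.142 (*Cxcl16*) and 0.883 (*Ackr4*). The library number is all that the labels give about a pool, so that animals, sort and library preparation of a pool cannot be told apart.

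The 6 tested CXC ligands that were not members were read in the same test, and 3 of them passed. *Cxcl2*, which acts through Cxcr2 and lies beside *Cxcl1* on chromosome 5, was at 120, 108 and 26.3 CPM in CD34hi and 46.6, 45.5 and 7.97 CPM in CD34lo libraries, and pool 3 differed from pool 1 by -2.35 (edgeR adjusted p = 0.00106). *Cxcl3* of the same cluster was at 0.321 to 3.04 CPM and differed by -2.02 (edgeR adjusted p = 0.0444), and 5.84% of the 50-base stretches of *Cxcl2* also occur in *Cxcl3*. The 3 that did not pass were *Cxcl5* of that cluster (0.419 to 3.40 CPM in CD34hi and 2.83 to 6.98 CPM in CD34lo, lowest in pool 3 of both, edgeR adjusted p = 0.142), *Cxcl10* (-0.11, edgeR adjusted p = 0.559) and *Cxcl9* (-0.19, edgeR adjusted p = 0.882). *Cxcl13*, a B cell attractant encoded elsewhere on chromosome 5, differed in the opposite direction, by 2.03 (edgeR adjusted p = 0.0185), with 38.9, 49.1 and 176 CPM in CD34hi and 3.98, 9.82 and 14.1 CPM in CD34lo libraries. Among 14 listed subunits, inputs and response genes of the NF-κB pathway, 4 differed among pools, and all 4 were lowest in pool 3 of each population: *Nfkb1* (-1.41, edgeR adjusted p = 0.00845), *Tnfaip3* (-0.92, edgeR adjusted p = 0.00856), *Il6* (-1.13, edgeR adjusted p = 0.0276) and *Rel* (-0.90, edgeR adjusted p = 0.0373).

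**Figure D3:**
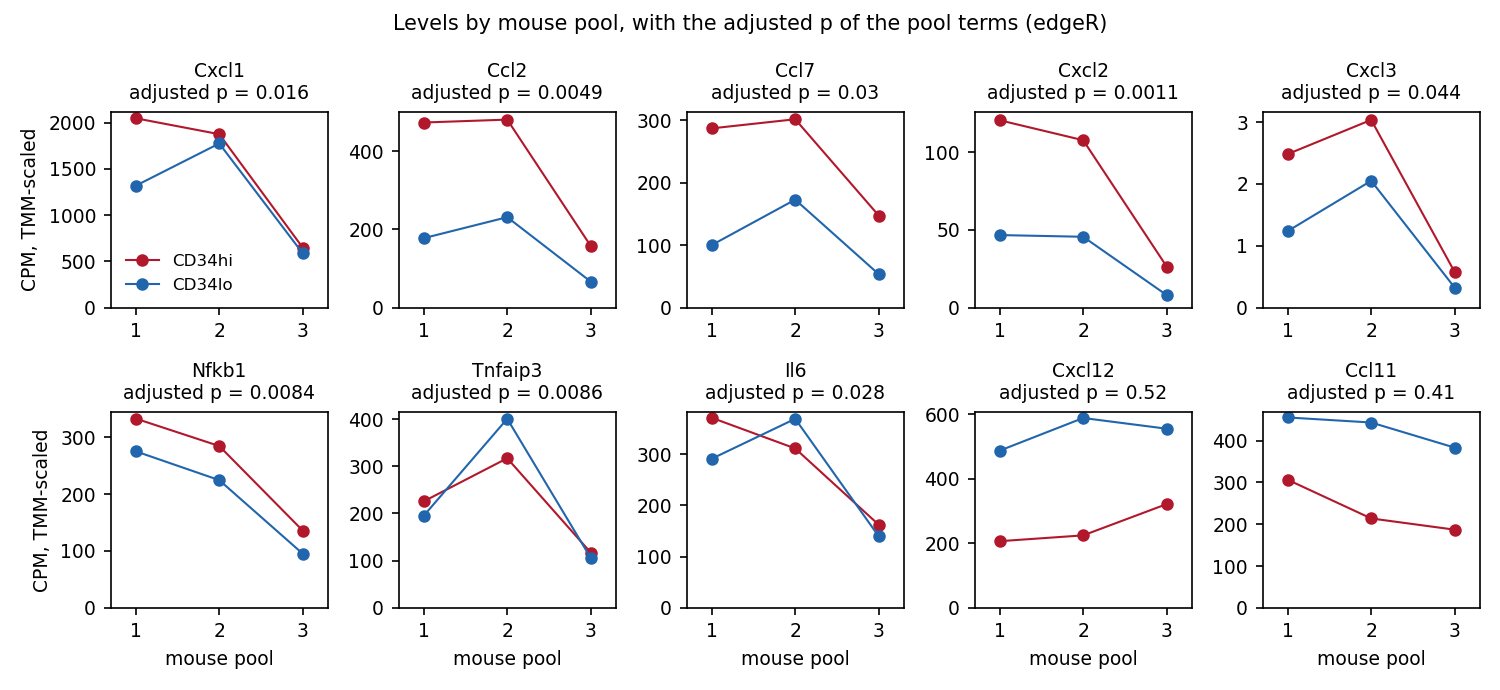
TMM-scaled CPM in mouse pools 1 to 3 for CD34hi (red) and CD34lo (blue) libraries, each axis starting at 0, with the edgeR adjusted p of the pool terms above each panel. The first 8 panels, *Cxcl1* to *Il6*, have their lowest point of each population in pool 3, while *Cxcl12* (adjusted p = 0.524) and *Ccl11* (adjusted p = 0.414) keep the 2 populations apart in every pool.

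The sequence before the transcription start is shown for *Cxcl1*, *Cxcl2* and *Cxcl3*, since these neighbours moved together among pools. The 150 bases upstream of the start are given 5′ to 3′ on the gene's strand (RefSeq, GRCm38.p6), with the κB motif, the binding motif of NF-κB, in capitals.
Cxcl1: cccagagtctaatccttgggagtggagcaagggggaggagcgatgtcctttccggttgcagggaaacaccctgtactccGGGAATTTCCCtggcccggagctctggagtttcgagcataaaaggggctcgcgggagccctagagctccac
Cxcl2: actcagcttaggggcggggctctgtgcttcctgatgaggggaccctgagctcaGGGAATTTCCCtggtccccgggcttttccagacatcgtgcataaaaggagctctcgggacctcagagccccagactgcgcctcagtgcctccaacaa
Cxcl3: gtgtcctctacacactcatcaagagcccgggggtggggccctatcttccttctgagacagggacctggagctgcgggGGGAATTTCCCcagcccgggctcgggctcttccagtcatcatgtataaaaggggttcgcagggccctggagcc
They come from chr5:90891095-90891244, chr5:90903749-90903898 and chr5:90785951-90786100, all on the plus strand. The match began 71, 97 and 73 bases before the start, and in each gene it held 2 overlapping matches to the motif. Searched on both strands in the 250 bases upstream, the κB motif occurred in 7.25% of 32851 promoters. Promoter sequences were found for 6 of the 10 genes, and those of *Ccl2*, *Ccl7*, *Ccl11* and *Cxcl16* were not analysed here. Of the 6, *Cxcl1* held the motif and the other 5 had no match. Outside the 10 genes, *Ackr2* held 2 matches, 224 and 64 bases before the start. Its pool terms did not pass (edgeR adjusted p = 0.367). Matches in *Nfkb1*, *Tnfaip3*, *Il6*, *Rel* and *Cxcl13* were not read, so the motif was not compared with the pool terms. *Ackr1* and *Cxcr4* had no match. A match is a description of the letters and not of binding, and its part in the levels was not tested.

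Neighbours on a chromosome did not always share a direction. *Ccl2*, *Ccl7* and *Ccl11* lie within 27.4 kb of chromosome 11, on the plus strand and in this order, at the start of a cluster of 6 CC ligand genes that spans 144 kb. *Ccl2* and *Ccl7* were higher in CD34hi cells with the replicate block, and *Ccl11*, the next gene, was higher in CD34lo cells in both fits. Of the remaining genes of the cluster, *Ccl8* did not pass (log2 fold change 0.22, edgeR adjusted p = 0.561) and *Ccl1* had no counts. *Ccl12* was at 0 to 0.0224 CPM in CD34hi and 0.360 to 3.12 CPM in CD34lo cells (edgeR adjusted p = 0.00313), with every CD34hi library under the floor of 3 counts.

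Per length, *Cxcl1* was the most abundant chemokine ligand transcript in all 6 libraries. It made up 41.3% to 57.3% of the summed RPKM of 39 ligands in CD34hi and 43.9% to 57.8% in CD34lo libraries. Behind it the order differed between the populations. In CD34hi cells *Ccl2*, *Ccl7* and *Ccl11* followed in ranks 2, 3 and 4 of every library, whereas *Ccl11* took rank 2 and *Ccl2* rank 3 in every CD34lo library. *Ccl2* made up 11.9% to 17.0% in CD34hi and 5.88% to 8.93% in CD34lo libraries, and *Ccl11* 5.68% to 10.6% and 12.9% to 25.6%. *Cxcl14* held rank 10 in every CD34hi library (0.366% to 0.742%) and rank 4 or 5 in CD34lo libraries (4.82% to 5.84%), and *Cxcl12* made up 0.771% to 2.73% and 2.56% to 5.56%. A share depends on every other ligand of the library, so these shares are a description and carry no test.

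In mean RPKM ± SD (n = 3), the CD34hi order was *Cxcl1* at 1595 ± 799, *Ackr3* at 834 ± 151, *Ccl2* at 460 ± 229, *Ccl7* at 306 ± 106, *Ccl11* at 220 ± 58.4 and *Cxcl12* at 35.1 ± 8.64. *Ackr4* (15.1 ± 2.65), *Cxcl14* (14.6 ± 2.96), *Cxcl16* (9.12 ± 1.82) and *Cx3cl1* (1.10 ± 0.39) came last. Neighbours whose ranges over libraries overlapped were *Cxcl1* with *Ackr3*, *Ccl2* with *Ccl7*, *Ccl7* with *Ccl11* and *Ackr4* with *Cxcl14*. The CD34lo order was *Cxcl1* at 1284 ± 628, *Ccl11* at 398 ± 36.0, *Ccl2* at 196 ± 104, *Ccl7* at 136 ± 75.1, *Cxcl14* at 122 ± 37.4, *Ackr3* at 83.4 ± 33.7 and *Cxcl12* at 75.9 ± 7.20. *Cx3cl1* (15.2 ± 3.36), *Cxcl16* (9.83 ± 5.11) and *Ackr4* (1.02 ± 0.251) followed, and the ranges of *Ccl2*, *Ccl7*, *Cxcl14*, *Ackr3* and *Cxcl12* overlapped one with the next, as did those of *Cx3cl1* and *Cxcl16*. By mean RPKM, *Ackr3* was thus second in CD34hi and sixth in CD34lo cells. In CD34lo pools 1 and 3, however, it lay below *Cxcl12*, at 61.8 against 68.1 and 66.2 against 77.5 RPKM.

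**Figure D4:**
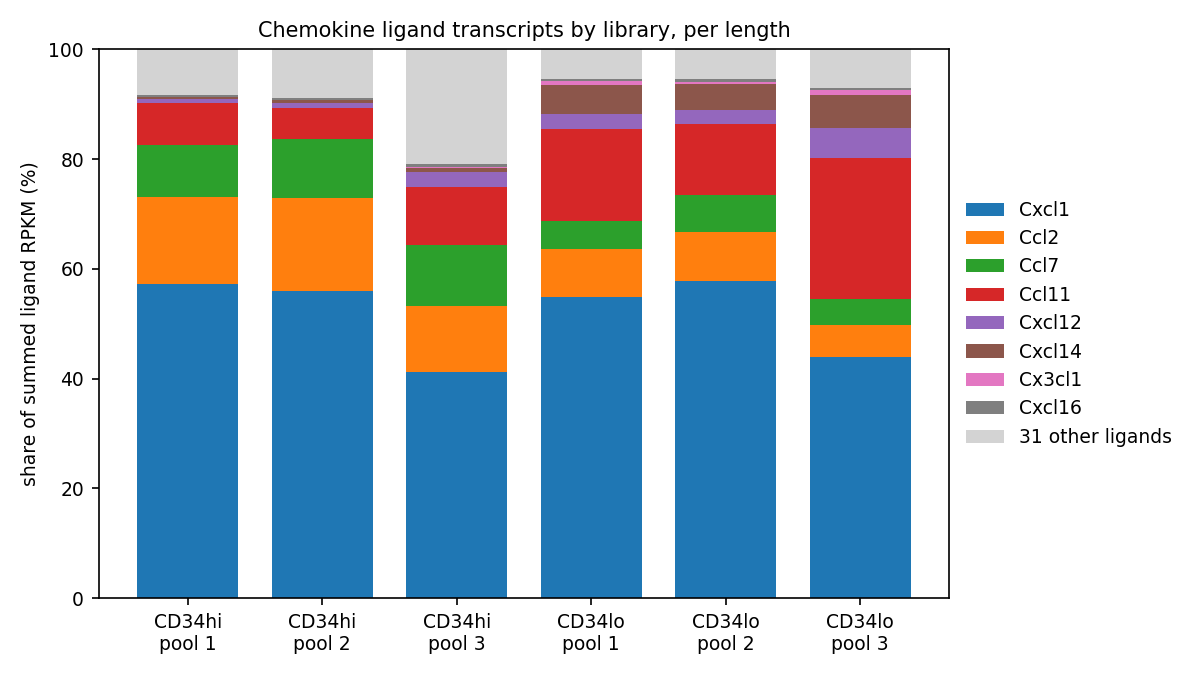
Share of the summed RPKM of 39 chemokine ligands taken by each of the 8 member ligands and by the 31 others together, as 1 stacked bar per library, in percent. *Cxcl1* fills 41.3% to 57.8% of each bar, *Ccl11* and *Cxcl14* take more of each CD34lo bar than of any CD34hi bar, and *Ccl2* takes less.

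Among the 31 chemokine ligands that were not members, 14 were expressed enough to be tested. Called higher in CD34hi were 3 and higher in CD34lo cells 4, beside 16.9% and 18.7% of all genes tested. Higher in CD34hi were *Cxcl13* (log2 fold change 3.26, edgeR adjusted p = 0.0047), the mucosal ligand *Ccl28* (1.74, edgeR adjusted p = 0.0023) and the interferon-inducible *Cxcl10* (1.25, edgeR adjusted p = 0.000638). *Cxcl10* was at 142 to 151 CPM in CD34hi and 50.6 to 79.8 CPM in CD34lo libraries. Its relative *Cxcl9*, another ligand of Cxcr3, was higher in CD34lo, at 11.9 to 15.0 CPM against 16.3 to 23.8 CPM (log2 fold change -0.64, edgeR adjusted p = 0.0195), a call lost without either library of pool 1 or pool 2 or without either pool (0.0581 to 0.181). *Ccl9* (-2.72, edgeR adjusted p = 0.000992) and *Ccl19* were also higher in CD34lo, both at no more than 2.23 CPM. *Cxcl2* and *Cxcl5* missed the threshold without the pool in edgeR and passed with the replicate block, at a log2 fold change of 1.43 (edgeR adjusted p = 1.72e-05, range over alternatives 8.27e-06 to 0.324) and -1.89 (edgeR adjusted p = 0.0019, range 0.0019 to 0.313). *Cxcl5* also passed in limma-voom without the block (adjusted p = 0.0364).

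The known ligands of Ackr4 were scarce in these cells. *Ccl19* was at 0.0441 to 0.166 CPM in CD34hi and 0.836 to 1.09 CPM in CD34lo libraries (log2 fold change -3.25, edgeR adjusted p = 0.00129), and 52.0% of its 50-base stretches also occur in near-identical genes, so this value is uncertain. *Ccl25* was at 0.882 to 1.90 CPM with overlapping groups (log2 fold change -0.23, edgeR adjusted p = 0.619). *Ccl20* and *Ccl21a* had too few counts to be tested, at no more than 0.216 CPM and 0.0922 CPM. The value of *Ccl21a* is uncertain too, since 71.6% of its 50-base stretches occur in near-identical genes, among them *Ccl21b*, all of whose stretches are shared and which was at no more than 0.193 CPM. Too few counts were also found for *Cxcl11*, the other ligand of Ackr3, at no more than 0.134 CPM, and 40.4% of its stretches are shared with other genes.

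Chemokine receptors that signal through G proteins were mostly near or below detection. Of all 19 such genes listed, 5 had enough counts to be tested and 2 were called, *Cxcr4* and *Ccr10*. Both were higher in CD34lo cells, as were 18.7% of all genes tested. *Ccr10*, the receptor of Ccl27 and Ccl28, was at 0.335 to 0.595 CPM in CD34hi and 0.932 to 1.11 CPM in CD34lo cells (log2 fold change -1.26, edgeR adjusted p = 0.0286), a call lost without either library of pool 1 or pool 2 or without either of these pools (edgeR adjusted p from 0.0575 to 0.21). *Ccr2*, the receptor of Ccl2 and Ccl7, had 2 counts in 1 library and 0 in the other 5. *Ccr3*, the receptor of Ccl11, and *Cxcr2*, the receptor of Cxcl1, each had 1 count in 1 library. *Cxcr6*, the receptor of Cxcl16, reached 0.324 CPM in 1 CD34lo library. At these depths, 3 counts correspond to 0.0572 to 0.104 CPM per library, a floor that covers counting error only.

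Proteases that trim or shed chemokines were higher in CD34hi cells in 3 of 5 tested genes, beside 16.9% of all genes tested. *Dpp4*, which trims Cxcl12 and Ccl11, was at 1226 to 1568 CPM in CD34hi and 37.9 to 76.8 CPM in CD34lo libraries, a log2 fold change of 4.40 (edgeR adjusted p = 1.46e-05). *Adam10* and *Adam17*, which shed Cx3cl1 and Cxcl16, had log2 fold changes of 0.89 (edgeR adjusted p = 0.00128) and 0.53 (edgeR adjusted p = 0.0106). *Adam17* lost its call without pool 1 (edgeR adjusted p = 0.0591) or pool 2 (0.0804). The log2 fold changes of *Mmp2* and *Mmp14*, 0.21 and -0.04, did not pass.

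In the NF-κB list, 3 of 14 genes were higher in CD34hi and 3 higher in CD34lo cells. The shares over all genes tested were 16.9% and 18.7%. The median log2 fold change of the list was 0.08. The receptor *Tlr4* (1.92, edgeR adjusted p = 0.00014) and the IκB family genes *Nfkbiz* (0.93, edgeR adjusted p = 0.0423) and *Nfkbia* (0.93, edgeR adjusted p = 0.0206) were higher in CD34hi. The adjusted p of *Nfkbiz* rose to between 0.0655 and 0.179 in 6 of the 9 fits without a library or a pool, and that of *Nfkbia* to between 0.0552 and 0.112 in 4 of them. The adhesion molecules *Icam1* (-1.34, edgeR adjusted p = 0.0162) and *Vcam1* (-1.27, edgeR adjusted p = 0.00195) were higher in CD34lo, as was *Tnfrsf1a* (-0.47, edgeR adjusted p = 0.0464, range over its alternatives 0.00555 to 0.206). With the replicate block the count higher in CD34hi was 6, beside 19.6% of all genes tested. Immediate early and heat shock genes, which also rise while tissue is digested, were higher in CD34lo cells for 10 of 13 listed. Their median log2 fold change was -1.11, and 18.7% of all genes tested were higher in CD34lo cells. Leading the list were the heat shock genes *Hspa1b* (-2.54, edgeR adjusted p = 2.02e-05) and *Hspa1a* (-2.44, edgeR adjusted p = 1.74e-05). Next came the immediate early gene *Nr4a1* (-1.87, edgeR adjusted p = 6.14e-05), while *Egr1*, *Atf3* and *Dusp1* were not called. The list summed to 24059 to 28405 CPM in CD34hi and 42305 to 56823 CPM in CD34lo libraries, and its part in the chemokine levels was not tested.

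Genes whose pattern over the 6 libraries lay nearest to that of *Ackr4* and *Cx3cl1* were found by the Euclidean distance of centred log2 CPM. Nearest to *Ackr4* were *Sytl2* (0.345), *Il13ra1* (0.441), *Galnt16* (0.478), *Mustn1* (0.500) and *Fgf2os* (0.521). Nearest to *Cx3cl1* were *Plekha6* (0.282), *Epor* (0.475), *Myo1d* (0.530), *Col15a1* (0.538) and *Kif1a* (0.554). Since the distance follows mainly the difference between the populations, it carries no test.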

How the data were processed

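RNA-seq of 3 CD34hi and 3 CD34lo libraries was analysed from the deposited counts. Per the labels and methods, the authors prepared TruSeq libraries, aligned reads to GRCm38/mm10 with Rsubread and deposited raw counts per gene. The strand setting and the treatment of reads with several matches are not given in the sources used here. Identifiers were matched to RefSeq symbols for 25275 of 27179 genes. In R 4.3.3, edgeR 4.0.16 was run on the counts with filterByExpr (15219 genes), TMM scaling and the quasi-likelihood test, with Benjamini-Hochberg adjustment at 0.05. Alternatives were limma-voom (limma 3.58.1), DESeq2 1.42.0, RLE and upper-quartile scaling, no filter, a minimum of 10 counts in each library, a replicate block (edgeR and limma-voom), each library and each pool left out, an adjusted p under 0.01 and a minimum change of 1 on the log2 scale. The test of the pool terms was added after seeing the data. The script was tested on simulated data.

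Same-numbered libraries were taken to come from the same pool of mice. The labels number the libraries and the methods name 3 pools, without stating the match. Deviations of such pairs from the mean of their population correlated with r = 0.279, 0.0844 and 0.243 over genes, which are no replicates. Pairs of unlike numbers were not compared, so these values cannot show the pairing. The exact two-sided permutation test of 3 against 3 libraries cannot go below p = 0.1, so it was not used. RPKM used the deposited exon length of each gene, and isoforms were not told apart. The named genes are the 10 members, up to 5 called genes of each list with the largest change, the receptors and ligands that pair with the members, *Cd34* and *Pdgfra*, and the 5 nearest patterns. Further names were chosen after their values were seen, such as *Cxcl2*, *Cxcl3*, *Cxcl5*, *Ccl8*, *Ccl21b*, *Nfkb1*, *Tnfaip3*, *Il6*, *Rel*, *Acad11* and the marker genes. Members and lists were chosen with earlier results of these data known.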

Additional observations from a re-analysis of the deposited data

How the results depend on the processing

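The number of the 10 genes called lay between 5 and 8 over the alternatives (6 as reported). Over 37 named genes and all refits, 578 of 624 values kept direction and side of the threshold, 26 lost the call, 12 gained one and 8 changed sign. The sign changes were those of *Cxcl1* (-0.0175 without CD34lo replicate 3, highest 0.684), *Cxcl16* (0.0146 with limma-voom, 0.0398 without CD34hi replicate 1, 0.397 without CD34lo replicate 2, 0.235 without pool 2, lowest -0.339), *Cx3cr1* (0.127 without CD34lo replicate 2, lowest -0.76) and *Ccl25* (0.0175 without CD34hi replicate 3, 0.137 without pool 3, lowest -0.456), none of them called in any of these fits.

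*Ccl2* also passed without CD34hi replicate 3 (edgeR adjusted p = 0.0221) and without pool 3 (0.00456), and *Ccl7* with limma-voom (0.043), with no filter (0.0275) and without CD34hi replicate 3, CD34lo replicate 2, pool 2 or pool 3 (0.0125 to 0.0292). Genes called over the whole table (5411) were 3444 at an adjusted p under 0.01 and 2986 with a minimum change of 1 on the log2 scale. Leaving out libraries or pools moved that count between 3468 and 5236. At least 10 counts in every library left 1 CC ligand called (4 as reported), as the filter removed the scarce ones. With the replicate block in edgeR or limma-voom, 5 other CXC ligands were called (3 as reported), and among the members only the calls of *Ccl2* and *Ccl7* were gained by it. An adjusted p under 0.01 left 1 signalling receptor and 2 NF-κB genes, and the fold minimum left 1 protease and 3 NF-κB genes. Without a library or pool, between 1 and 2 signalling receptors and 3 and 6 NF-κB genes were called. *Ccl11* lost its call without pool 2. The cause of these changes was not tested, and 3 libraries a population limit the detection of small differences.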
